A study of Aquilegia coerulea with 32 samples.

Results

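The s4 onset genes of the columbine *Aquilegia coerulea* were 16 of the 30023 transcripts in the files. Their mean level at the fourth stage of floral bud development was at least 3 times that at any of the first 3 stages. They were chosen by their measured levels in TPM (transcripts scaled to a fixed library total, a level corrected for transcript length and library size). The mean TPM over the 8 libraries of s4 had to be at least 2 and at least 3 times the highest of the s1, s2 and s3 means. The s3 mean had to be under 2 times the s1 mean, and at least 6 of the 8 s4 libraries had to lie above every library of s1, s2 and s3. An s4 mean of at least 2 TPM was reached by 17059 loci, 115 of them also had the 3-fold difference, 34 of those met the limit on s3, and 18 had enough s4 libraries above. Loci with a published *Aq* symbol and 4 further named loci were left out beforehand. This removed *Aqcoe2G141600* and *Aqcoe1G018500*, homologs of the anther bZIP genes *TGA9* and *TGA10*.

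The study sequenced RNA from floral buds at 4 stages, with 8 biological replicates per stage and 32 libraries in all, from wild-type plants of the cultivar ‘Kiragami’ that had been vernalized. Stamen primordia were forming at s1, the staminodes had all been initiated at s2, the carpel primordia had raised rims at s3, and by s4 they had used up the apex of the bud. A library of s1, s2 or s3 held 2 buds from 2 plants and a library of s4 held 1 bud, and 3 sepals were removed from every bud, so each library mixed the organs and meristem of whole buds. Single-bud libraries were made only at s4, and the number of buds and the stage cannot be told apart. Library totals lay between 21502103 and 31647297 estimated counts. The label of the tissue is floral meristem, and the meristem gene *AqSTM1* was present in every library, with means of 142 ± 24.1 TPM at s1 and 33.0 ± 6.57 TPM at s4 (SD, n = 8 each). In whole buds, more cells of a type and more RNA per cell cannot be told apart.

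As background, a stamen primordium forms an anther with pollen sacs, in which an inner nurse layer, the tapetum, feeds the developing pollen and supplies material for its wall. In *Arabidopsis thaliana*, the receptor kinase EMS1 (also called EXS) and its small peptide ligand TPD1 specify the tapetum, and a series of transcription factors that includes DYT1, TDF1 and AMS then runs its program. The bZIP factors TGA9 and TGA10 and the glutaredoxins ROXY1 and ROXY2 act earlier, in the anther lobes. Homologs of *AMS* and *EMS1* were both among the 16 genes. Gene names are the best *A. thaliana* hits in the part of the study's tables used here, which named 12 of the 16. *Aqcoe4G133100*, *Aqcoe2G044300* and *Aqcoe5G377700* were listed there without a best hit. *Aqcoe1G461000* was not listed there, so whether it has a best hit is not known here. The files give no positions. The identifiers place 4 of the genes on chromosome 5, 3 each on chromosomes 2 and 7, 2 each on chromosomes 1 and 4, and 1 each on chromosomes 3 and 6.

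The values that chose these genes are given here as a description, without a test. Their s4 means ran from 2.04 to 80.6 TPM with a median of 6.11, and the ratio of the s4 mean to the highest earlier mean ran from 3.0 to 22.9 with a median of 4.96. In 5 of the 16 genes all 8 s4 libraries lay above every earlier library, in 4 genes 7 libraries did and in 7 genes 6 did. Over all 20477 genes tested for differential expression, all 8 s4 libraries lay above in 0.176% and at least 6 of them in 1.51%. The 5 fully separated genes were the *AMS* homolog, the cupredoxin *Aqcoe5G057900*, the PLATZ factor *Aqcoe1G163100*, the unannotated *Aqcoe4G133100* and the *CYP77A4* homolog.

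**Figure D1:**
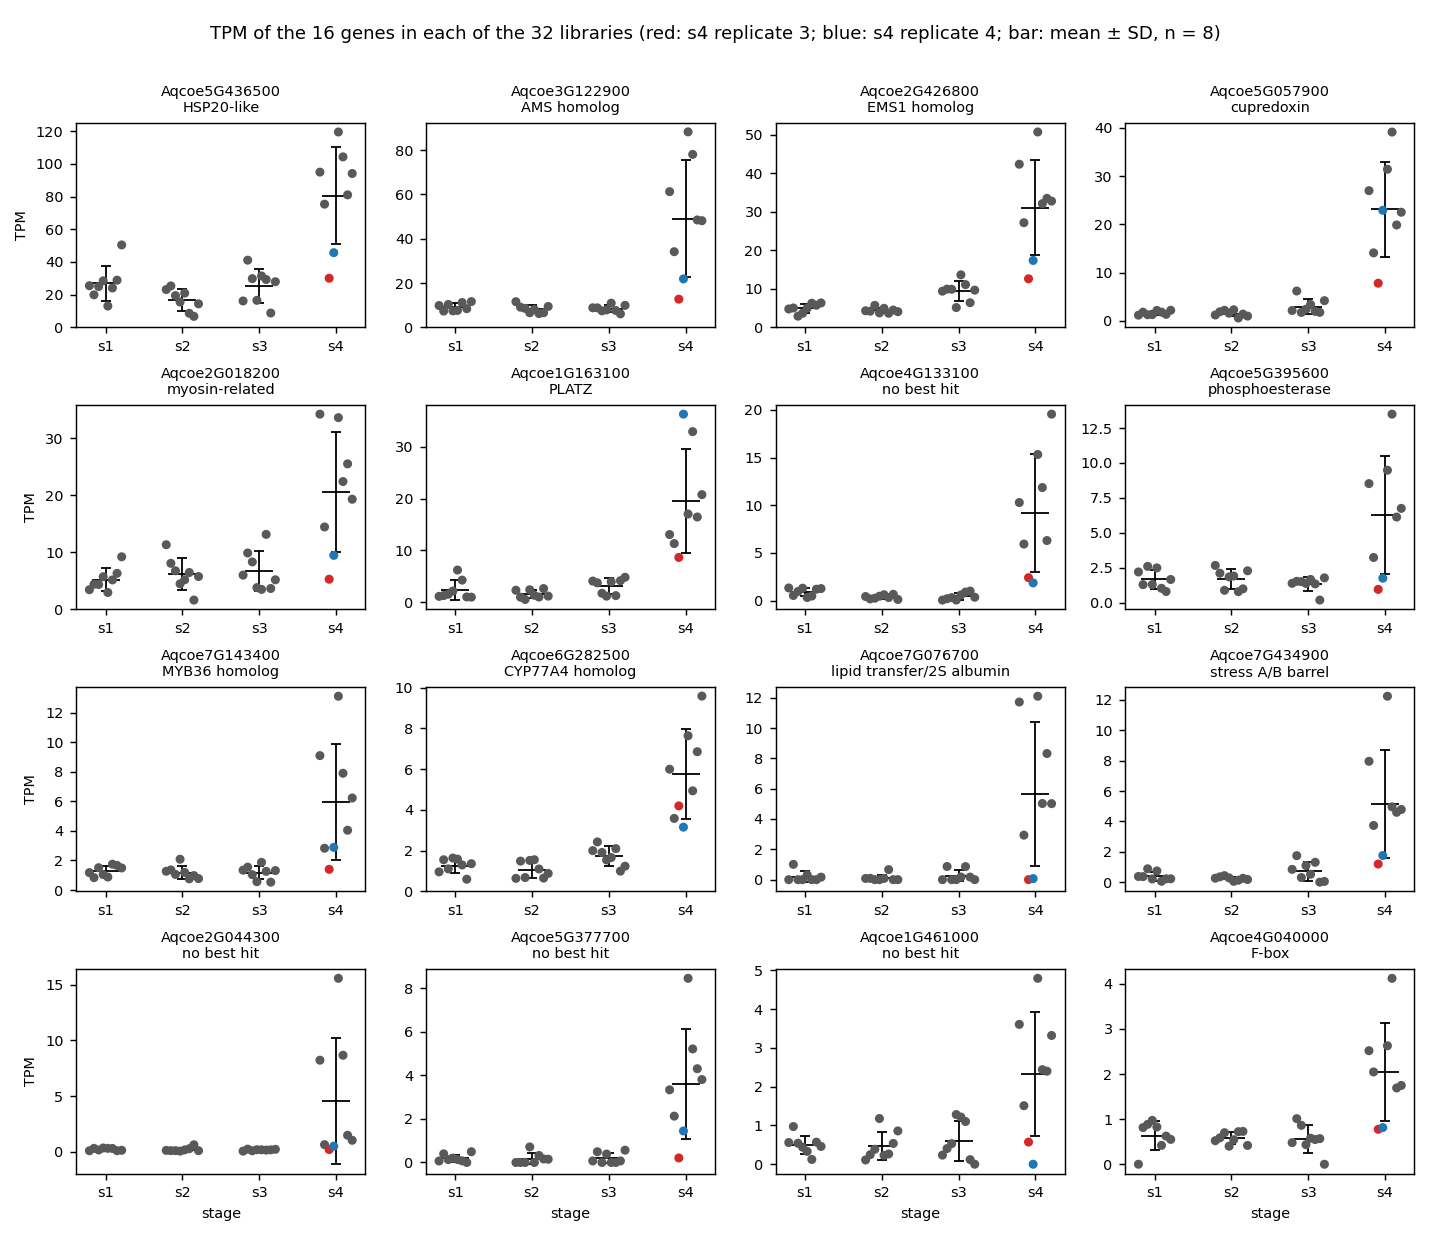
TPM (vertical axes, linear, one scale per panel) of the 16 s4 onset genes in each library at s1, s2, s3 and s4 (horizontal axes), ordered by s4 mean; each point is 1 library, and horizontal bars with whiskers are the mean ± SD over 8 libraries. Levels over s1 to s3 are lower than the s4 means, and among the s4 libraries replicate 3 (red) is the lowest in 13 of the 16 panels, while replicate 4 (blue) is the highest for *Aqcoe1G163100*.

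*Aqcoe3G122900* has as its best hit *AMS* (*ABORTED MICROSPORES*), a basic helix-loop-helix transcription factor that *A. thaliana* needs for tapetum function and pollen wall formation. Its lowest, median and highest levels were 7.32, 9.12 and 11.6 TPM at s1 and 6.2, 8.28 and 11.6 TPM at s2, followed by 6.07, 8.31 and 10.9 TPM at s3. At s4 they were 12.7, 48.3 and 88.3 TPM. All 8 s4 libraries lay above all 24 earlier ones, although the lowest, replicate 3, was only just above, and the highest, replicate 5, was far from it. The s4 mean of 49.1 ± 26.2 TPM (SD, n = 8) was 5.33 times the highest earlier mean.

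*Aqcoe2G426800* encodes a leucine-rich repeat transmembrane kinase whose best hit is *EMS1*. Its lowest, median and highest levels were 2.88, 4.99 and 6.32 TPM at s1, 3.63, 4.23 and 5.69 TPM at s2, 5.12, 9.75 and 13.6 TPM at s3, and 12.6, 32.4 and 50.7 TPM at s4. The s3 libraries reached above s1 and s2, and 7 of the 8 s4 libraries lay above all earlier ones, with replicate 3 inside the range of s3. The s4 mean was 31.0 ± 12.3 TPM, 3.31 times that of s3. A second locus with the same best hit, *Aqcoe1G136700*, is not one of the 16 genes and ran the other way in its means, from 43.9 TPM at s1 to 32.2 TPM at s3 and 20.4 TPM at s4, where no s4 library lay above the earlier ones. Its log2 difference from s3 to s4 was -0.59 (SE 0.15, edgeR adjusted p 0.023), short of the fold change required for a call. *Aqcoe5G346200*, the homolog of the ligand gene *TPD1*, had 6.09 TPM at s3 and 7.56 TPM at s4 (log2 difference 0.35, SE 0.33, edgeR adjusted p 0.59).

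Another 3 of the 16 genes belong to families of gene regulators. *Aqcoe1G163100* encodes a PLATZ factor, a plant zinc-binding DNA-binding protein. It had 0.980, 1.41 and 6.21 TPM (lowest, median, highest) at s1, 0.537, 1.26 and 2.64 TPM at s2, 1.17, 3.84 and 4.81 TPM at s3, and 8.64, 16.7 and 36.3 TPM at s4. The stages did not overlap between s4 and the rest, and here the highest s4 library was replicate 4, which was among the lowest for most of the other genes. Its s4 mean was 19.5 ± 10.03 TPM, a ratio of 6.28 to the highest earlier mean. *Aqcoe7G143400* is a homolog of *MYB36*, a MYB factor that directs formation of the Casparian strip in the root endodermis of *A. thaliana*. Its median was between 1.13 and 1.34 TPM over s1 to s3 with a highest library of 2.08 TPM, and at s4 its lowest, median and highest levels were 1.40, 5.14 and 13.1 TPM. Replicate 3 was the 1 s4 library inside the earlier range. *Aqcoe4G040000* encodes an F-box protein, of the family that selects targets for ubiquitin ligases, and had the lowest s4 mean of the 16 genes, 2.04 ± 1.08 TPM against 0.636 ± 0.317 TPM at s1. Its lowest, median and highest s4 levels of 0.775, 1.90 and 4.12 TPM overlapped the earlier libraries in replicates 3 and 4, since the highest earlier library had 1.01 TPM.

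A further pair of the genes relates to lipids, by the role of the best hit in *A. thaliana* or by annotation. *Aqcoe6G282500* is a homolog of *CYP77A4*, a cytochrome P450 that acts on fatty acids in *A. thaliana*. It had 0.60, 1.33 and 1.64 TPM (lowest, median, highest) at s1, 0.643, 0.994 and 1.56 TPM at s2, 0.997, 1.79 and 2.43 TPM at s3, and 3.16, 5.47 and 9.59 TPM at s4. All 8 s4 libraries were above all earlier ones, and unlike in most of the genes the lowest s4 library was replicate 4 and not replicate 3. *Aqcoe7G076700* belongs to the lipid-transfer protein and 2S albumin superfamily, small secreted proteins that bind lipids or serve as seed stores. It had a median of 0 TPM at s1, 0.0392 TPM at s2 and 0.0851 TPM at s3, with 13 of the 24 earlier libraries at 0 counts and a highest earlier library of 1.01 TPM. At s4 its median was 5.02 TPM and its highest library had 12.1 TPM, but replicate 3 had 0 counts and replicate 4 had 0.0712 TPM. The other 6 s4 libraries ran from 2.93 to 12.1 TPM, so the gene was at or near 0 only in replicates 3 and 4 among the s4 libraries. The ratio of 21.8 between the s4 mean and the s3 mean rests on 25 counts summed over s3 and 598 over s4.

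The most abundant of the 16 genes was *Aqcoe5G436500*, an HSP20-like chaperone, a small heat shock protein that keeps unfolding proteins soluble. Its lowest, median and highest levels were 13.0, 25.2 and 50.4 TPM at s1, 6.69, 17.4 and 25.3 TPM at s2, 8.73, 28.6 and 41.1 TPM at s3, and 30.0, 87.5 and 119 TPM at s4. Replicates 3 and 4 of s4 lay inside the earlier range, whose top was a single s1 library, replicate 8. With a ratio of 3.0 it was the gene nearest inside the fold threshold, and estimated counts that were not whole (by more than 0.01) in 29 of 32 libraries show that its reads were shared out between transcripts, so its level is less certain. *Aqcoe5G417100*, the homolog of the mitochondrial *HSP23.6-MITO*, is not among the 16 but had 170 ± 31.8 TPM at s3 and 337 ± 82.8 TPM at s4, with all 8 s4 libraries above all earlier ones (log2 difference 1.04, SE 0.17, edgeR adjusted p 0.00022). Of the 18 small heat shock loci in the tables, 2 were called higher at s4 than at s3, these same loci, and 1 lower, beside 7.89% higher and 2.92% lower over all loci of the tables, and 1 of the 2 had been chosen by the rule.

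*Aqcoe5G057900* is a cupredoxin, a member of a family of small copper-binding proteins of the cell surface and electron transfer. The lowest, median and highest levels were 1.14, 1.54 and 2.16 TPM at s1, 0.557, 1.46 and 2.26 TPM at s2, 1.71, 2.24 and 6.16 TPM at s3, and 7.78, 22.7 and 39.2 TPM at s4. The s4 libraries did not overlap the earlier ones, and replicate 4, with 22.9 TPM, was close to the s4 median. The adjacent locus in the identifier order, *Aqcoe5G058000*, has the same annotation and a much lower level, with means of 0.133 TPM at s1, 1.0 TPM at s3 and 1.81 TPM at s4, and it is not one of the 16 genes. No 2 of the 16 genes were within 2 loci of each other.

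The other named genes were lower and more scattered. *Aqcoe7G434900*, a stress responsive alpha-beta barrel protein, had 1.19, 4.69 and 12.2 TPM as its lowest, median and highest s4 levels against a highest earlier library of 1.75 TPM, and only replicate 3 of s4 lay below that. *Aqcoe5G395600*, a calcineurin-like metallo-phosphoesterase, had 0.942, 6.43 and 13.5 TPM at s4 and a highest earlier library of 2.66 TPM. *Aqcoe2G018200*, annotated as myosin-related, had 5.29, 20.9 and 34.3 TPM at s4 and a highest earlier library of 13.2 TPM. In both of these genes s4 replicates 3 and 4 were the s4 libraries that did not lie above the earlier ones.

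Of the 4 genes not named by a best hit, *Aqcoe4G133100* separated s4 best. The levels (lowest, median, highest) were 0.327, 1.08 and 1.33 TPM at s1, 0.121, 0.379 and 0.661 TPM at s2, 0.0580, 0.335 and 1.0 TPM at s3, and 1.86, 8.29 and 19.6 TPM at s4, a ratio of 9.92. *Aqcoe2G044300* had the highest ratio of the 16 genes, 22.9, and also the widest spread. Its s4 median was 1.24 TPM while its s4 mean was 4.53 ± 5.68 TPM (SD, n = 8), since replicates 1, 5 and 6 had 8.23, 15.6 and 8.67 TPM and the other 5 between 0.184 and 1.47 TPM. Its estimated counts were not whole in 25 of 32 libraries. *Aqcoe5G377700* had medians of 0.133, 0.0743 and 0.0718 TPM at s1, s2 and s3 and 3.57 TPM at s4, with a range of 0.207 to 8.45 TPM there. *Aqcoe1G461000* had at most 48 counts in any library, an s4 range from 0 TPM in replicate 4 to 4.79 TPM in replicate 5, and a ratio of 3.81. The locus 2 steps before it in the identifier order, *Aqcoe1G460800*, had means of 0.199, 0.215, 0.746 and 7.78 TPM over the 4 stages, and it is outside the 16 genes because its s3 mean was over 2 times its s1 mean.

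The s4 libraries were not alike, and every s4 library that did not lie above the earlier ones was replicate 3 or 4. In replicates 1, 2, 5, 6, 7 and 8 all 16 genes lay above every earlier library, in replicate 4 it was 9 of 16 and in replicate 3 it was 5 of 16. Replicate 3 was the lowest s4 library for 13 genes and replicate 4 for the other 3, replicate 5 was the highest for 9, and in 12 genes replicates 3 and 4 were the lowest pair. Over all 16 genes the coefficient of variation within s4 had a median of 59.9%, against 24.2% over the 17059 loci with an s4 mean of at least 2 TPM. Without replicates 3 and 4 these medians were 39.9% and 15.0%. Only 115 of the 17059 loci had the 3-fold difference, so the comparison is not matched for a rise at s4 or for level. A wide spread is therefore not read as particular to the 16 genes. The totals of replicates 3 and 4, 26460997 and 30415453 estimated counts, were inside the range of the other s4 libraries.

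**Figure D2:**
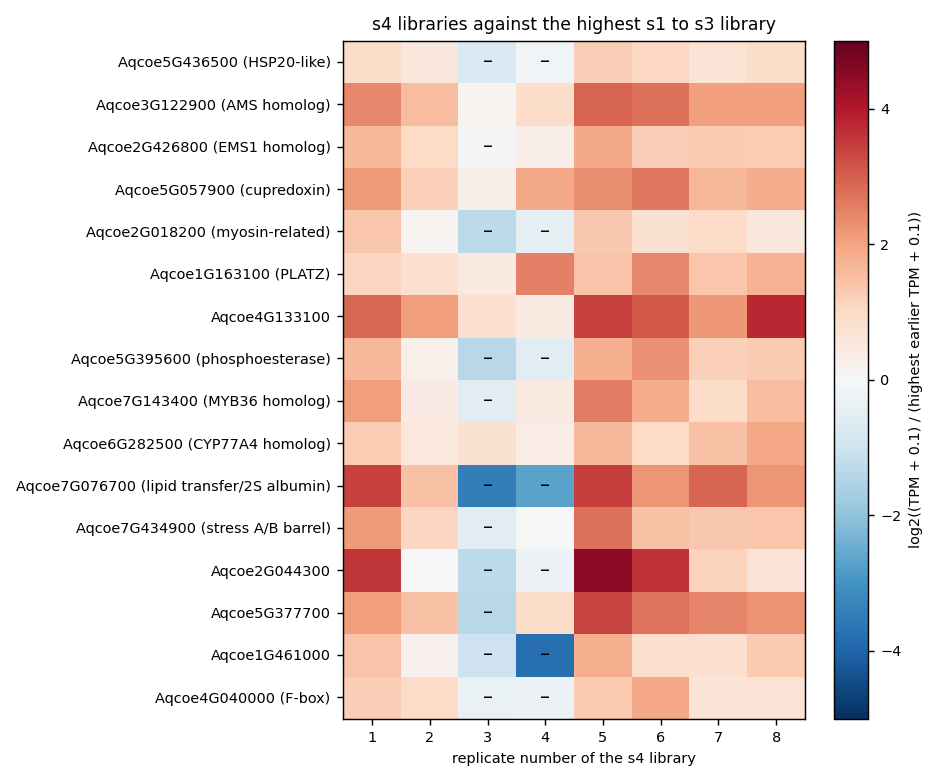
Level of each of the 16 s4 onset genes (rows, ordered by s4 mean) in each s4 library (columns, by replicate number) relative to the highest library of s1 to s3, as log2 of the ratio of TPM values after adding 0.1 to each (colour scale); a dash marks a library that did not lie above every earlier one. All dashes fall in replicates 3 and 4, 11 genes in replicate 3 and 7 in replicate 4.

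Of the other 165 genes called higher at s4 than at s3, replicate 3 was the lowest s4 library for 59 (35.8%) and replicate 4 for 57 (34.5%), where for the 16 genes the shares were 81.2% and 18.8%. Replicate 4 was also the highest s4 library for 32 of these 165 genes, and replicate 3 for 0. Of the 63 genes called lower at s4, replicate 3 was the highest s4 library for 28 and the lowest for 0. Replicate 4 was the highest for 6 of the 63 and the lowest for 25, so the 2 replicates differed from each other in these genes. The carpel gene *AqAG2* had 8.10 TPM in replicate 3 and 5.33 TPM in replicate 4, inside its s3 range of 5.91 to 8.51 TPM or below it, and 13.5 to 34.9 TPM in the other 6 s4 libraries. *AqSTM1* was at its s4 maximum of 42.6 TPM in replicate 3 and near its s4 minimum, at 26.8 TPM, in replicate 4. The part of these differences between single buds in the levels of the 16 genes was not tested.

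With replicates 3 and 4 left out, an alternative added after the data had been seen, the ratio of the s4 mean to the highest earlier mean ran from 3.53 to 30.0 over the 16 genes, with a median of 5.76 against 4.96 with all 8 libraries. These replicates were the lowest pair of s4 in 12 of the genes, so leaving them out raises the ratio there by construction. The lowest of the remaining 6 s4 libraries was then 1.02 to 4.46 times the highest earlier library. The *AMS* homolog had 59.7 TPM on average over these 6 libraries, against 12.7 TPM in replicate 3 and 21.9 TPM in replicate 4. The PLATZ gene moved the other way, from a ratio of 6.28 to 5.97, since its highest library was left out.

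Within s4 most of the 16 genes went up and down together from bud to bud. Over the 8 s4 libraries, Pearson's r of log2(TPM + 0.1) had a median of 0.83 over the 120 pairs of genes, ran from -0.29 to 0.99 and was positive in 118 pairs. Over the 6 libraries other than replicates 3 and 4 the median was 0.71 and 116 pairs were positive. These coefficients are descriptions over libraries that share their RNA, depth and TPM scale across genes, and genes chosen for being high in the same libraries must resemble each other to some degree. Among the libraries of s1, s2 and s3 the medians were 0.02, -0.04 and 0.25. Several of the genes had few counts at these stages, such as *Aqcoe7G076700* with median counts of 0, 0.5 and 1. Noise of low counts can lower r, so a difference from the s4 median is not read as a change in likeness. The genes most like the rest within s4 were the *AMS* homolog, with a median r of 0.93 to the other 15, and the HSP20-like, *EMS1*, phosphoesterase and myosin-related genes, each with 0.91. The PLATZ gene was least like the rest, with 0.19, and the *CYP77A4* homolog had 0.64.

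The steps from s1 to s2 and from s2 to s3 ask whether the genes had already moved before s4. The choice of genes set no contrast between s1 and s2 or between s2 and s3, but it did use these libraries, since each had to lie below most s4 libraries, each stage mean was limited by that of s4, and s3 was limited by s1. The numbers of calls are therefore given beside those over all genes as a description, and nothing is read from them about the genes as a group. Estimated counts were compared with edgeR's quasi-likelihood test, and genes were called where the log2 fold change was 1 or more in either direction and the adjusted p was below 0.05. From s1 to s2, 0 of the 16 genes were called by edgeR and 0 by DESeq2, where 0.596% of all genes tested were called by edgeR. An unadjusted edgeR p under 0.05 was reached by 2 of the 16, both lower at s2, against 7.86% of all genes. They were *Aqcoe4G133100*, with a log2 difference of -1.25 (SE 0.50, edgeR adjusted p 0.39), and *Aqcoe5G436500*, with -0.66 (SE 0.30, edgeR adjusted p 0.55). The log2 differences of the 16 genes had a median of -0.14, and 14 of them were below 0, where the median of all genes tested was 0.01.

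From s2 to s3, 1 of the 16 genes was called, and it was higher at s3, where 0.259% of all genes tested were called higher. This was the *EMS1* homolog *Aqcoe2G426800*, whose mean went from 4.37 ± 0.670 TPM at s2 to 9.37 ± 2.63 TPM at s3 (log2 difference 1.10, SE 0.21, edgeR adjusted p 0.0043). The highest s2 library had 5.69 TPM, and 7 of the 8 s3 libraries were above it. An unadjusted p under 0.05 was reached by 5 of the 16 genes in edgeR and 6 in DESeq2, against 7.49% of all genes in edgeR. Besides the *EMS1* homolog these were the cupredoxin (0.99, SE 0.31, edgeR adjusted p 0.19), the *CYP77A4* homolog (0.70, SE 0.25, edgeR adjusted p 0.32), the stress responsive barrel gene (1.58, SE 0.61, edgeR adjusted p 0.41) and the PLATZ gene (1.01, SE 0.41, edgeR adjusted p 0.47). All of these differences were positive, none but that of the *EMS1* homolog passed the adjusted threshold, and 12 of the 16 genes had positive differences. The *AMS* homolog had a log2 difference of 0.03 (SE 0.24), and its mean differed by less than the SD between libraries over the first 3 stages. The lowest of the 3 earlier means was that of s2 in 12 genes.

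**Figure D3:**
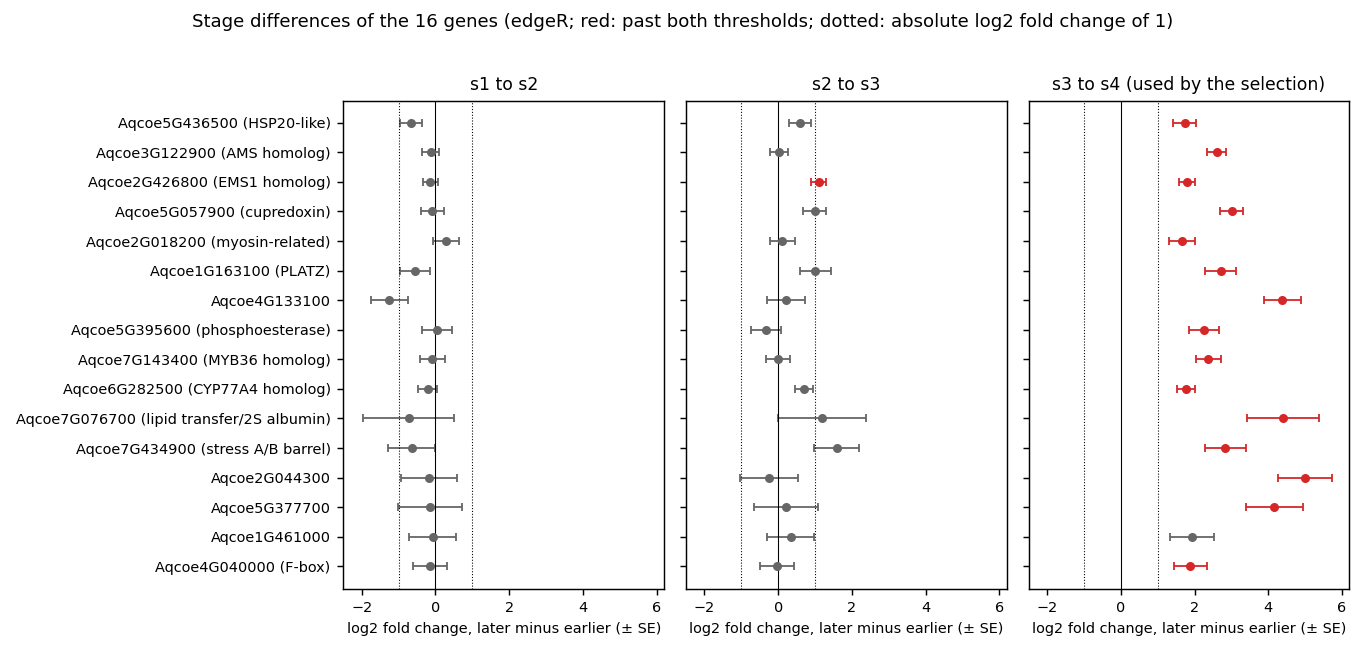
Log2 fold changes with standard errors (horizontal axes, later minus earlier stage, edgeR) of the 16 s4 onset genes (rows) for the steps from s1 to s2, s2 to s3 and s3 to s4; red points passed both thresholds. No gene passed from s1 to s2 and only *Aqcoe2G426800* from s2 to s3, and the third panel shows the step by which the genes were chosen.

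Between s1 and s3 the limit on s3 all but barred a call of higher at s3 in advance, so the count is a description of the choice. By this count 0 of the 16 genes were called by edgeR and by DESeq2, beside 3.76% of all genes tested that were called by edgeR. The log2 difference of the *EMS1* homolog was 0.95 (SE 0.21), just under the fold required, and the gene was called when s1 replicate 6, s1 replicate 8, s3 replicate 4 or s3 replicate 7 was left out. The contrasts with s4 are given as descriptions. From s3 to s4, 15 of the 16 genes passed the thresholds of a call, beside 0.879% of all genes called higher, with log2 differences from 1.66 to 5.0 and a median of 2.48. From s2 to s4 and from s1 to s4 all 16 did, beside 3.90% and 7.31% of all genes. These 3 contrasts share the s4 libraries. The exception from s3 to s4 was *Aqcoe1G461000*, the gene with the lowest counts, at a log2 difference of 1.93 (SE 0.59), which passed in DESeq2 and without s4 replicate 3, s4 replicate 4 or s3 replicate 6. The *AMS* homolog had log2 differences of 2.60 (SE 0.25) from s3, 2.63 (SE 0.25) from s2 and 2.49 (SE 0.25) from s1.

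The threshold on the fold separated loci with similar ratios. The 3 genes nearest inside the fold threshold were *Aqcoe5G436500* at 3.0, *Aqcoe2G018200* at 3.07 and *Aqcoe4G040000* at 3.21 times the highest earlier mean. The 3 nearest outside were *Aqcoe4G027500* at 2.98, with an s4 mean of 113 TPM and all 8 s4 libraries above, *Aqcoe4G088600* at 2.96 with 18.8 TPM, and *Aqcoe6G065900*, an elongation factor Tu family protein, at 2.95 with 125 TPM. A further 6 loci missed only the number of libraries, with 5 of 8 above, and 40 missed only the limit on s3.

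Of 42 *A. thaliana* genes listed for anther and tapetum, 12 were the best hit of a locus in the tables, 16 loci in all, and the early tapetum regulators *DYT1* and *TDF1* were not among them. The lists were drawn up with results of these data known, and the tables hold loci that the study had picked for their change on these libraries, so that neither is independent evidence of a direction. From s3 to s4, 8 of the 16 anther loci were called higher and 0 lower, beside 0.879% higher and 0.308% lower over all genes tested, and 7.89% and 2.92% over the 1952 loci of the tables that were tested. The median log2 difference of the 16 loci was 1.36, against 0.40 over the loci of the tables and 0.01 over all genes tested. Among the 8 were the *AMS* and *EMS1* homologs of the chosen set and 3 *TGA* homologs that had been left out by name. The selection thresholds, which required a higher s4 mean, were met by the *AMS* and *EMS1* homologs, *Aqcoe2G141600* and *Aqcoe1G018500*. Their calls follow from those thresholds. Of the 14 anther loci outside the chosen set, which still hold the *TGA* homologs, 6 were called higher and 0 lower. *Aqcoe2G141600*, a *TGA9* homolog, had 10.8 ± 4.89 TPM at s3 and 66.9 ± 27.6 TPM at s4, and the *TGA10* homolog *Aqcoe1G018500* had 0.464 ± 0.356 TPM and 8.60 ± 8.99 TPM (SD, n = 8 each).

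The remaining 3 of the 8 are homologs of genes of anther development or pollen wall formation in *A. thaliana*. *Aqcoe3G183200* is a homolog of *bHLH91*, whose product pairs with DYT1 in the tapetum, and it had 0.472 ± 0.369 TPM at s3 and 4.5 ± 2.72 TPM at s4, with 7 of 8 s4 libraries above all earlier ones (log2 difference 3.29, SE 0.59, edgeR adjusted p 0.00069). *Aqcoe7G241700* is a homolog of *ACOS5*, an acyl-CoA synthetase of pollen wall precursors, and it went from 0.388 ± 0.187 to 1.85 ± 0.894 TPM (log2 difference 2.30, SE 0.53, edgeR adjusted p 0.0090). Its s4 mean was under the 2 TPM required here. *Aqcoe3G159700*, a *ROXY2* homolog, went from 12.6 ± 4.04 to 26.7 ± 12.8 TPM (log2 difference 1.12, SE 0.25, edgeR adjusted p 0.0078) but had been higher still at s1, with 39.0 TPM, and no s4 library lay above all earlier ones. It was no longer called when s4 replicate 6 was left out (log2 difference 0.91). The 8 anther loci that were not called ranged from -0.91 for the *JAG* homolog to 1.36 for a pair of *SHT* homologs.

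**Figure D4:**
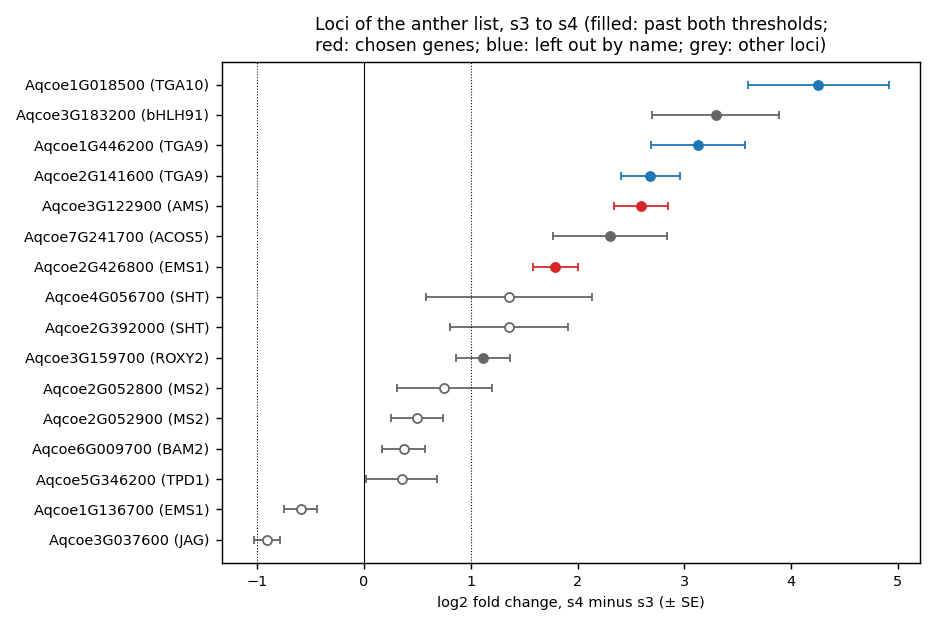
Log2 fold change from s3 to s4 with standard error (horizontal axis, edgeR) of the 16 loci whose best hit is on the anther list (rows, with the *A. thaliana* symbol); filled points passed both thresholds, red marks the 2 loci of the chosen set, blue the 3 left out by name and grey the others. Of the 16 loci 8 passed, all of them higher at s4. The red loci, *Aqcoe2G141600* and *Aqcoe1G018500* met the selection thresholds, which required a higher s4 mean.

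The summed level of the 16 anther loci moved with the same s4 libraries as the chosen genes. It ran from 159 to 224 TPM at s1, 108 to 152 TPM at s2 and 96.2 to 162 TPM at s3, and at s4 from 145 to 473 TPM, with 147 TPM in replicate 3 and 145 TPM in replicate 4. Both of these were inside the range of s3. The sum includes the *AMS* and *EMS1* homologs. It also includes *Aqcoe2G141600* and *Aqcoe1G018500*, which met the same thresholds and were left out only by name. Its likeness to the chosen genes is therefore in part built in by the choice. The 13 cuticle and wax loci summed to 113 to 197 TPM at s3 and 155 to 323 TPM at s4, with replicate 4 lowest and 205 TPM in replicate 3. Of these, 4 were called higher from s3 to s4 and 0 lower, the *CYP77A4* homolog and *Aqcoe2G135500* (*CER4*), *Aqcoe3G070800* (*CUS2*) and *Aqcoe3G346800* (*MYB106*). Over all loci of the tables, 7.89% were called higher and 2.92% lower. The *CYP77A4* homolog had been chosen for its higher s4 mean, and of the 12 other loci 3 were called higher and 0 lower. Nothing is read from this count about the list. *Aqcoe2G135500*, for a reductase of wax alcohols, had 0.115 ± 0.0978 TPM at s3 and 2.40 ± 1.94 TPM at s4 (log2 difference 4.36, SE 0.64, edgeR adjusted p 4.5e-05). *Aqcoe3G070800*, for a cutin synthase, had 20.02 ± 12.4 and 65.9 ± 40.4 TPM (log2 difference 1.75, SE 0.50, edgeR adjusted p 0.046) and lost its call in 21 of 39 alternatives. *Aqcoe3G346800*, for a MYB regulator of epidermal cells, had 3.29 ± 0.812 and 6.64 ± 1.19 TPM (log2 difference 1.08, SE 0.21, edgeR adjusted p 0.0019), and without both s4 replicates 3 and 4 its log2 difference was 0.999, a little under the fold required.

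The other lists held none of the chosen genes or few of them, and their counts stand beside the 7.89% called higher and 2.92% called lower over all loci of the tables, from which no list is set apart here. Of the 10 carpel and ovule loci 3 were called higher from s3 to s4, *AqAG2*, the *BEL1* homolog *Aqcoe5G437300* and the *MYB119* homolog *Aqcoe2G099900*, with s4 means of 19.8, 0.737 and 0.456 TPM, and 0 were called lower. The list's summed level ran from 163 to 229 TPM at s3 and 65.1 to 188 TPM at s4, lowest in replicate 4. Of 17 loci for nitrogen, sulfur and phosphate transport and use, 2 were called higher, the *SULTR1;3* homolog *Aqcoe6G059800* (log2 difference 1.95, SE 0.55, edgeR adjusted p 0.042) and the *BAT1* homolog *Aqcoe6G032900* (1.16, SE 0.28, edgeR adjusted p 0.013), of which the former lost its call in 14 of 39 alternatives and the latter in 2. No locus was called among 16 of secondary walls, 15 of photosynthesis and 3 of stomata. Of 138 transcription factor loci 15 were called higher, 3 of them chosen genes (the PLATZ, *AMS* and *MYB36* genes), and 7 lower. Of 77 P450 and oxygenase loci 7 were called higher, 1 of them the *CYP77A4* homolog, and 3 lower. Of 73 lipid loci 9 were called higher, 1 of them the lipid-transfer gene, and 2 lower. None of 53 cell wall and 88 transporter loci belonged to the set, with 7 and 5 of them called higher and 0 and 3 lower. Their summed levels were highest among the s4 libraries in replicate 4, at 1094 TPM for the cell wall loci and 3193 TPM for the transporters. Single loci can weigh heavily in these sums. An *XTH6* homolog of the cell wall list reached 599 TPM in its highest s4 library, and a *CAX1* homolog of the transporter list reached 1064 TPM in its own. The sums are therefore not read as a rise over the whole list.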

How the data were processed

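RNA was measured in 32 libraries, 8 per stage, made with the SMART-Seq v4 and Nextera XT kits. The authors quantified the reads with kallisto 0.46.1 against the *A. coerulea* v3.1 transcriptome, and the deposited values are estimated counts and TPM per transcript. Library totals set the precision, and members with few counts were the least certain. The 16 genes and the gene lists were chosen with earlier results of these data known.

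Estimated counts were rounded to whole numbers. Transcripts above 1 CPM in at least 1 library were kept, 20477 in all. All 32 libraries entered a single edgeR 4.0.16 quasi-likelihood fit (R 4.3.3) with TMM normalization and Benjamini-Hochberg adjustment. Genes were called at an adjusted p below 0.05 where the log2 fold change was 1 or more in either direction. The study used DESeq2 on length-scaled values, and DESeq2 1.42.0 was run here as an alternative. On simulated counts for s3 to s4 over 20477 genes, edgeR recovered 100% of 200 genes changed by 2 on the log2 scale, with 0 false calls. The simulation gave every gene the same spread at every stage and changed only genes with a mean above 1 CPM. It therefore does not show how genes with few counts or a wide spread within s4 would be recovered. Levels and figures were made with Python 3.11.15, pandas 2.3.3, numpy 2.4.6 and matplotlib 3.10.9. Log2 levels within a stage used a pseudocount of 0.1 TPM. P-values measure the spread of libraries around their stage means in the single fit over all 32 libraries, which mixes 2-bud and 1-bud libraries. The study dissected more buds than it had plants. Libraries may therefore share plants, which the labels do not give and the test does not account for.

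Genes were named where their best hit was on a list, where they were among the 10 highest by s4 mean or by ratio, nearest to the fold threshold, next to a locus of the same annotation, called before s4, or list loci called from s3 to s4. The remaining chosen genes, and list loci that were not called, were named after their values had been seen. Alternatives were other filters, normalizations, tests and thresholds, a replicate block, and each library left out in turn.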

Additional observations from a re-analysis of the deposited data

Results flagged for a closer look

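Among the 64 groups of 8 libraries formed by the 16 genes and 4 stages, 7 held a library far from the others by Dixon's criterion for the gap to the nearest library as a share of the range, which is 10.9%, where chance gives about 1 in 20. The chance share holds for normally distributed values. *Aqcoe7G076700*, *Aqcoe2G044300* and *Aqcoe5G377700* had few counts in the groups concerned, so no excess is read from the share. None of the 7 groups was at s4. The HSP20-like gene *Aqcoe5G436500* had 50.4 TPM in s1 replicate 8, and the next library had 28.8 TPM. The phosphoesterase gene *Aqcoe5G395600* had 0.175 TPM in s3 replicate 7, where the next lowest had 1.34 TPM. The *MYB36* homolog *Aqcoe7G143400* had 2.08 TPM in s2 replicate 4 against 1.36 TPM in the next. The lipid-transfer gene *Aqcoe7G076700* had 1.01 TPM in s1 replicate 2 against 0.315 TPM, and 0.662 TPM in s2 replicate 6 against 0.0878 TPM. *Aqcoe2G044300* had 0.608 TPM in s2 replicate 7 against 0.258 TPM, and *Aqcoe5G377700* had 0.713 TPM in s2 replicate 4 against 0.321 TPM.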

How the results depend on the processing

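The number of genes that met the thresholds was 16. It was 40 at 2 times the highest earlier mean, 9 at 4 times, and 5 when all 8 s4 libraries had to lie above. With TMM-normalized CPM in place of TPM it was 19, of which 14 were shared, and *Aqcoe1G461000* and *Aqcoe4G040000* were lost. With libraries left out in turn it ran from 12 (without s4 replicate 5) to 31 (without s4 replicate 4), and was 30 without s4 replicate 3. Up to 2 of the s4 libraries kept could still fail to lie above in these settings. Without both replicates 3 and 4, added after seeing the data, it was 26, and all 6 remaining s4 libraries had to lie above. These counts therefore follow different requirements. The 16 genes were among those 30, 31 and 26. Stage medians, also added then, gave 19 genes, 11 of them shared. The calls from s1 to s2 and s2 to s3 stayed at 0 and 1 genes in every alternative, and the *EMS1* homolog ranged from 1.02 to 1.19 on the log2 scale (edgeR or DESeq2 adjusted p 5.6e-05 to 0.015). From s1 to s3, 0 to 1 genes were called with libraries left out, and from s3 to s4 15 to 16. With only the 16 libraries of s3 and s4 in the fit, 14 genes were called from s3 to s4, since *Aqcoe4G040000* was not (log2 difference 1.88), and 42 list loci. With more than 1 CPM required in at least 8 libraries, 11 of the 16 genes could be tested, and all 11 were called from s3 to s4. No s3 to s4 difference of a named gene, and not the s2 to s3 difference of the *EMS1* homolog, reversed its sign in the alternatives run, and the other differences were not followed gene by gene. Of the 485 list loci outside the chosen set, 56 were called from s3 to s4, 45 to 90 with libraries left out (90 without s4 replicate 4), and 115 without both replicates 3 and 4. The causes were not tested.

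Same-numbered libraries of different stages did not deviate together (median r 0.003, over 0.1 in 17 of 48 pairs), and 4 of 32 libraries were most like one of their own number. With the replicate number as a block, 0, 1, 0 and 15 genes were called from s1 to s2, s2 to s3, s1 to s3 and s3 to s4, and 16 in each of the other contrasts, with 53 list loci. Depth limits the genes with few counts, such as *Aqcoe1G461000* and *Aqcoe4G040000*.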
